A study of Homo sapiens with 6 samples.

Results

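The 49 genes described here make up the glutathione, thioredoxin and NADPH antioxidant machinery of the cell. They were chosen by name from the 53826 entries listed in every library, with earlier results of these data known. RNA-seq was performed on PK-1 and Panc-1 cells, established lines of human pancreatic ductal adenocarcinoma, and the design asked how blocking the retinoic acid receptor RARγ altered their transcripts. Each line was kept as a control or exposed for 24 h to RARγi-1 (LY2955303) or RARγi-2 (MM11253), antagonists of RARγ that differ in structure, which gave 6 libraries with 1 library per condition. Titles were used to assign the libraries, because a treatment entry names RARγi-1 for the RARγi-2 libraries too. The RNA-seq doses and any vehicle given to the controls are not stated, so the values of the inhibitors are given side by side and were not compared as matched doses. The labels name no genetic change and no further agent for any of the 6 libraries.

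Reduced glutathione is built from glutamate, cysteine and glycine by glutamate-cysteine ligase and glutathione synthetase, is spent by peroxidases and transferases, and is restored by glutathione reductase at the cost of NADPH. The thioredoxin system runs in parallel: thioredoxin reduces peroxiredoxins, which remove peroxides, and thioredoxin reductase returns it to the reduced form with NADPH. NADPH is supplied by the oxidative steps of the pentose phosphate pathway and by malic enzyme, among other sources. Many of these genes are known targets of NRF2 (encoded by NFE2L2), a factor that KEAP1 holds in check and that binds the antioxidant response element together with small MAF proteins.

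Levels are in TPM, a unit of transcript abundance that corrects for transcript length and gives every library the same total, and values under 1 TPM were deposited as 1 TPM, which is called the floor. Fold changes are on the log2 scale and compare libraries of the same line, with 1 TPM added to the treated and the control level, which understates the change of genes with low levels. The 4 comparisons are listed with PK-1 before Panc-1 and, within each line, RARγi-1 before RARγi-2. Within a line both comparisons use the same control library. There was 1 library per condition, so differences could not be set against replicates and were not tested, and the same holds for differences between the lines. TPM keeps no read numbers, so the depth is unknown. As a yardstick only, the robust standard deviation of the log2 difference between the inhibitor libraries of a line was 0.41 for PK-1 and 0.31 for Panc-1, and this includes real differences between the inhibitors. In bulk RNA, fewer cells of a type and less RNA per cell cannot be told apart.

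Each library had between 13149 and 13652 entries above the floor. Both lines carried epithelial keratins, while CDH1 was at the floor in the 3 Panc-1 libraries and read 170 TPM in PK-1 Control, and VIM read 6291 TPM in Panc-1 Control against 41.7 TPM in PK-1 Control. These markers also differed with treatment. KRT8, KRT18 and KRT19 stood at 0.108 to 0.252 times the control in treated Panc-1 and at 0.528 to 0.929 times in treated PK-1. EPCAM stood at 0.955 and 0.860 times the control in treated PK-1 and at 1.42 and 0.708 times in treated Panc-1. VIM stood at 2.18 and 3.30 times the control in treated PK-1 and at 0.644 and 0.630 times in treated Panc-1. CDH1 stood at 1.59 and 2.26 times the control in treated PK-1. Of 18 markers of acinar, endocrine, leukocyte, endothelial and fibroblast cells, 15 were at the floor in all 6 libraries, and CD14 rounded to the floor in each. PRSS1 read 1.06, 11.1 and 21.2 TPM in PK-1 Control, RARγi-1 and RARγi-2 and was at the floor in Panc-1. CD68 read 19.8, 95.0 and 62.6 TPM in the PK-1 libraries and 244, 276 and 238 TPM in the Panc-1 libraries. The part of these marker changes in the results below was not tested.

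The promoters of the members were searched for TGACNNNGC, the core letters of the antioxidant response element, on both strands, in RefSeq windows that run from 250 bases before to 50 bases after each transcript start (GRCh38.p14). A window was found for 40 of the 49 members, and 11 of these 40 (27.5%) held the letters, against 4384 of 27305 genes with a window (16.1%). Counted by windows, the shares were 12 of 59 (20.3%) for the members and 4687 of 35116 (13.3%) for all. Many members are known NRF2 targets, so their shares, and that of any subset of them, are not independent of how they were chosen. No window was listed for GSS, GSR, MGST2, TXN2, PRDX1, PRDX6, SOD1, ABCC1 and ABCC3. Of the 7 members upregulated more than 2-fold in all 4 comparisons, 3 (42.9%) held a match, namely GCLM, TXNRD1 and PGD. The 250 bases before the start are shown for these 3, for ME1, which was more than 2-fold higher in Panc-1, and for GSTP1 and GSTO1, which hold the same letters and were not more than 2-fold higher in any comparison. Capitals mark the match, which in GCLM and PGD lies on the opposite strand and so appears as its reverse complement. The stretches lie at chr1:93909431-93909680 on the minus strand (GCLM), chr12:104215529-104215778 on the plus strand (TXNRD1), chr1:10398814-10399063 on the plus strand (PGD), chr6:83431052-83431301 on the minus strand (ME1), chr11:67583562-67583811 on the plus strand (GSTP1) and chr10:104254642-104254891 on the plus strand (GSTO1), each written 5′ to 3′ towards the start.
GCLM: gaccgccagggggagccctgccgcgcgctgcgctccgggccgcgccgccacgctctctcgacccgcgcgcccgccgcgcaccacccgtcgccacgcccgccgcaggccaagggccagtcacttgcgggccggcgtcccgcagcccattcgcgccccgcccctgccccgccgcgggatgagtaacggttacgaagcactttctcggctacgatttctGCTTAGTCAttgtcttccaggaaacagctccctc
TXNRD1: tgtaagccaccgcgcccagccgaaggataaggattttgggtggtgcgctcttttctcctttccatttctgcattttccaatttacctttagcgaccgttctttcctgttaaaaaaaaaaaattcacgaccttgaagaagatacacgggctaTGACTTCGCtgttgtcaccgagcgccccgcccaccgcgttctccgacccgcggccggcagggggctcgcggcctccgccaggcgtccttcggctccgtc
PGD: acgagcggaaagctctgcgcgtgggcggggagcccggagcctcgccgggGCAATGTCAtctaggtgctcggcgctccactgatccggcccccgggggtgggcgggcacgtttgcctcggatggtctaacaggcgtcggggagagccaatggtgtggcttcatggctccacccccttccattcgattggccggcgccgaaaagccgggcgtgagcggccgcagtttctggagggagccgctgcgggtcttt
ME1: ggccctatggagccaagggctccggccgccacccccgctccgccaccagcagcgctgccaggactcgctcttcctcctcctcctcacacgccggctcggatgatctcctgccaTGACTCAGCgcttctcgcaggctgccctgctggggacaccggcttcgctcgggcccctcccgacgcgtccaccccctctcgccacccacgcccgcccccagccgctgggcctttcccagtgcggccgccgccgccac
GSTP1: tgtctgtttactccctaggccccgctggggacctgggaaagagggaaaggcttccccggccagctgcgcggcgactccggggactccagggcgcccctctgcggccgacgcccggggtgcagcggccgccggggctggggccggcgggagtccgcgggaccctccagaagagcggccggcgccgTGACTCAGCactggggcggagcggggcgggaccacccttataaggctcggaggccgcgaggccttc
GSTO1: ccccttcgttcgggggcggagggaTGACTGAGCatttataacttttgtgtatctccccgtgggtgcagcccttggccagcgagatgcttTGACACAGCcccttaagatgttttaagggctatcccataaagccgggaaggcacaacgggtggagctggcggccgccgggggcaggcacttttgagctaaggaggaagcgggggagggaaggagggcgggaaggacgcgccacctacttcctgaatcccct
The match began 34 bases before the start in GCLM, 99 in TXNRD1, 201 in PGD, 137 in ME1 and 66 in GSTP1, while GSTO1 had matches at 226 and 161. ME1 and GSTP1 shared the core TGACTCAGC, although ME1 was higher in the 4 treated libraries and GSTP1 was not. Outside the stretches shown, ME1 had a match that began 11 bases after the start, and TXNRD1 had 1 that began 8 bases before the start and runs past it and 1 in another window, 102 bases before its start. Further matches lay in the windows of KEAP1, GGT1, GPX2, GSTM1 and MGST1. A match describes letters in the window and was not tested as a binding site, and a window without one says nothing about NRF2.

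Among the 49 members, RARγi-1 upregulated 12 more than 2-fold in PK-1 and RARγi-2 upregulated 11, while in Panc-1 the counts were 12 and 13. These counts are 24.5%, 22.4%, 24.5% and 26.5% of the members, against a background of 9.05%, 11.9%, 7.30% and 8.34% of all entries above the floor in at least 1 library of the line. Most members are abundant, so the background was also taken over entries of at least 10 TPM, where it was 10.7%, 14.0%, 8.73% and 10.1%. At that level stood 43 members in PK-1 and 42 in Panc-1, of which 25.6%, 25.6%, 26.2% and 28.6% were more than 2-fold higher. In each comparison the share of members on the higher side was thus above both backgrounds. The members were chosen with earlier results of these data known, so this excess is not independent of that choice. In all 4 comparisons, 7 members (14.3%) were more than 2-fold higher, against 2.63% of the entries above the floor in both lines. These were GCLC and GCLM of glutathione synthesis, TXNRD1 and SRXN1 of the thioredoxin system, PGD of the pentose phosphate pathway, the NRF2 partner MAFG and the NRF2 target OSGIN1.

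Downregulation past 2-fold was seen for 2 and 2 members in PK-1 and for 4 and 6 in Panc-1, which is 4.08%, 4.08%, 8.16% and 12.2%. The background was 4.85%, 12.3%, 5.96% and 11.0% of entries above the floor, and 5.92%, 15.2%, 7.24% and 12.9% of entries of at least 10 TPM, against 4.65%, 4.65%, 7.14% and 11.9% of the members at that level. The members on the lower side were near or under the background and their number is no result about them. PRDX3 alone was more than 2-fold lower in all 4 comparisons (2.04% of the members, against 2.13% of all entries). In 32 members no comparison was past 2-fold on the higher side, and in 42 none on the lower side. GPX1 and GSTM1 were listed at the floor in all 6 libraries and GPX2 in the 3 Panc-1 libraries, and they are kept in every count with no change. Median-ratio rescaling of the libraries shifted every log2 fold change by -0.13 for PK-1 RARγi-1 and by -0.10 for Panc-1 RARγi-1. With it MAFG and GCLM were no longer past 2-fold in all 4 comparisons, and PRDX2 joined PRDX3. With a pseudocount of 5 TPM, GCLM and PRDX3 were past 2-fold in fewer than 4 comparisons.

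**Figure D1:**
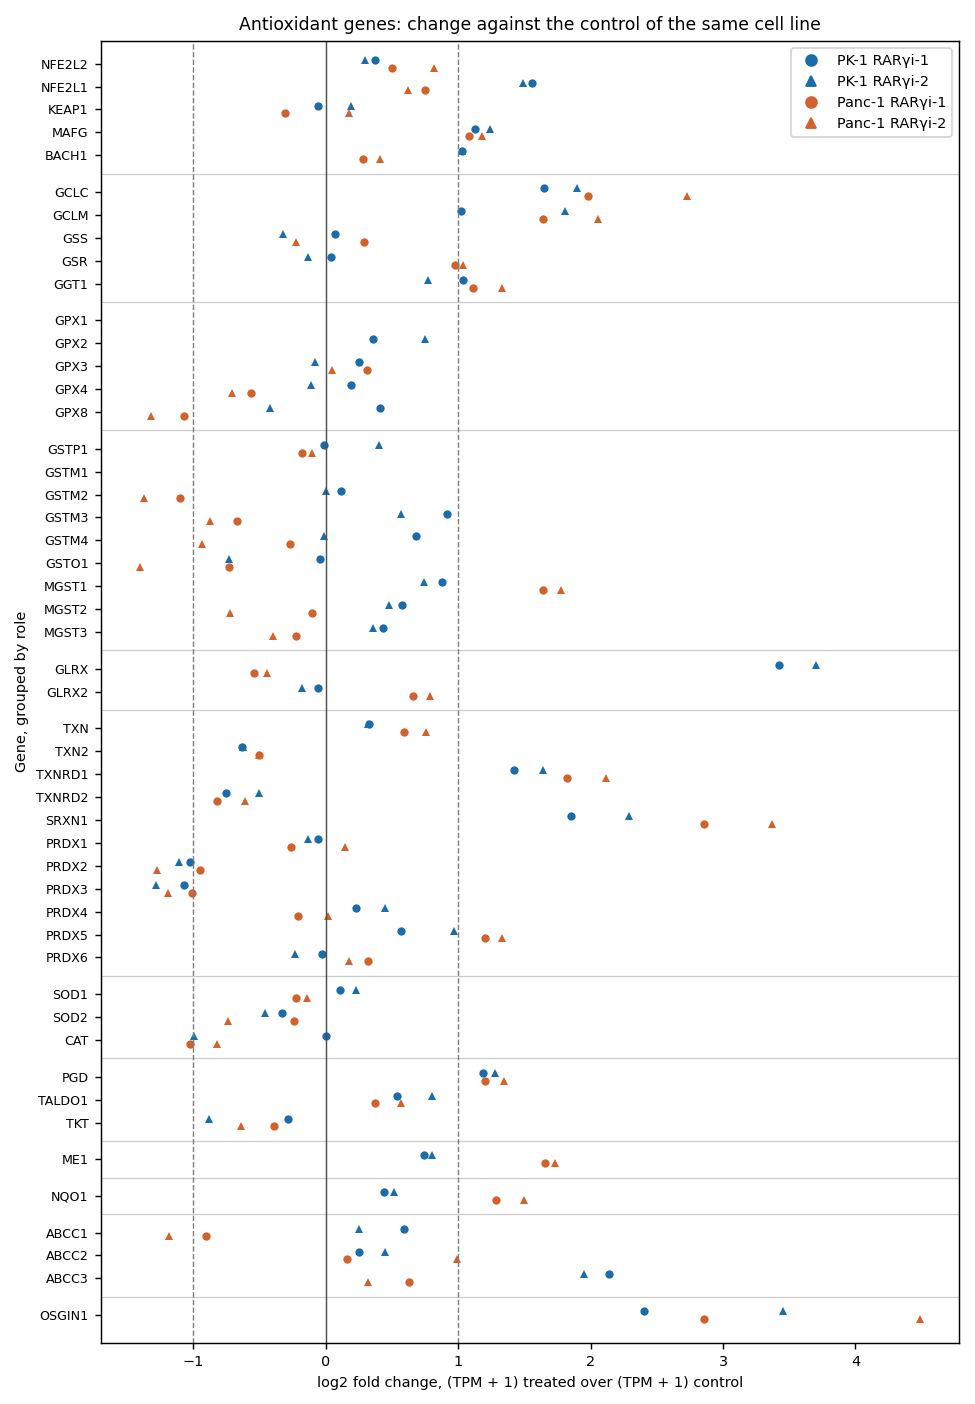
Log2 fold change in (TPM + 1) of each of the 49 members against the control of its cell line (x axis), with genes grouped by role (y axis). Circles are RARγi-1 and triangles RARγi-2, PK-1 is blue and Panc-1 orange, each point is 1 library against 1 control, and dashed lines mark 2-fold. GPX1 and GSTM1 have no points because they were at the floor, and GPX2 has none for Panc-1 for the same reason. OSGIN1 lies farthest right, at 4.49 in Panc-1 RARγi-2, and GSTO1 farthest left, at -1.40 in the same library.

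**Figure D2:**
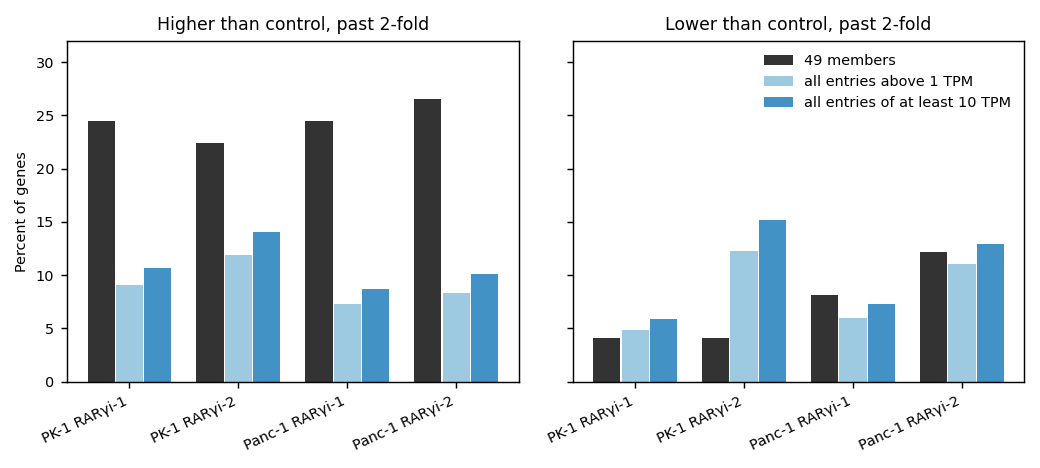
Percent of genes past 2-fold (y axis) in each comparison (x axis), on the higher side (left) and the lower side (right). Black bars are the 49 members, light blue all entries above 1 TPM and darker blue all entries of at least 10 TPM. The black bars stand at 22.4% to 26.5% on the left and from 4.08% to 12.2% on the right, where the background lies between 4.85% and 15.2%.

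Among the 5 regulators, transcripts of the repressor KEAP1 and of NFE2L2 were within 2-fold of the control in all 4 comparisons. NFE2L2 read 92.0, 119 and 114 TPM in PK-1 Control, RARγi-1 and RARγi-2, and 68.1, 96.8 and 121 TPM in the Panc-1 libraries in the same order. The control was the lowest library in each line, with log2 fold changes of 0.37, 0.30, 0.50 and 0.82. KEAP1, the adaptor that marks NRF2 for degradation, lay between -0.31 and 0.19. NFE2L1, which encodes the related factor NRF1 and was the most abundant regulator, read 141, 418 and 398 TPM in PK-1 and 176, 297 and 271 TPM in Panc-1. It was past 2-fold only in PK-1, at 1.56 and 1.49, against 0.75 and 0.62 in Panc-1. MAFG, a small MAF partner of NRF2, read 35.6, 79.4 and 85.3 TPM in PK-1 and 41.9, 90.0 and 96.4 TPM in Panc-1. The 4 treated libraries were close to one another and above both controls, with log2 fold changes of 1.13, 1.24, 1.08 and 1.18. MAFG shares exon sequence with SIRT7 on the same strand in GENCODE 29, and how reads were divided is not given in the sources used here. BACH1, a repressor that competes for the same element, read 7.01, 15.3 and 15.3 TPM in PK-1 (1.03 and 1.03) and 3.52, 4.50 and 5.01 TPM in Panc-1 (0.28 and 0.41).

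Within glutathione synthesis, both subunits of glutamate-cysteine ligase, the rate-limiting step, were upregulated, while glutathione synthetase was not. GCLC, the catalytic subunit, read 54.5, 173 and 206 TPM in PK-1 Control, RARγi-1 and RARγi-2 and 22.0, 89.9 and 151 TPM in Panc-1. In both lines the control was lowest and RARγi-2 highest, and the log2 fold changes were 1.65, 1.90, 1.98 and 2.73. GCLM, the modifier subunit, read 31.3, 64.7 and 112 TPM in PK-1 and 17.9, 58.1 and 78.1 TPM in Panc-1. Its libraries stood in the same order, with log2 fold changes of 1.02, 1.81, 1.64 and 2.06, and the PK-1 RARγi-1 value lay just past the threshold. GSS, the synthetase that adds glycine, read 102, 107 and 81.2 TPM in PK-1 and 63.8, 78.1 and 54.6 TPM in Panc-1, where the treated libraries lay on both sides of the controls. The ratio of GCLC to GSS in TPM was 0.536 in PK-1 Control and 1.62 and 2.54 in the treated libraries, and 0.345, 1.15 and 2.77 in Panc-1. GCLC thus passed from below GSS in each control to above it in each treated library. The ratio of GCLC to GCLM ran from 1.23 to 2.67 over the 6 libraries.

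GSR, the reductase that recycles oxidized glutathione, read 87.2, 90.0 and 79.5 TPM in PK-1 and 20.2, 40.8 and 42.7 TPM in Panc-1. The PK-1 libraries were alike (0.04 and -0.13), whereas both treated Panc-1 libraries stood near 2-fold above a control that was lower than any PK-1 library (0.98 and 1.04). GGT1, which cleaves extracellular glutathione, was low, at 1.03, 3.19 and 2.47 TPM in PK-1 and 1.35, 4.05 and 4.89 TPM in Panc-1. It was higher in the treated libraries, with log2 fold changes of 1.04, 0.77, 1.11 and 1.33, but it shares exons with SNRPD3 on the same strand and has near-identical relatives, so its values are uncertain.

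**Figure D3:**
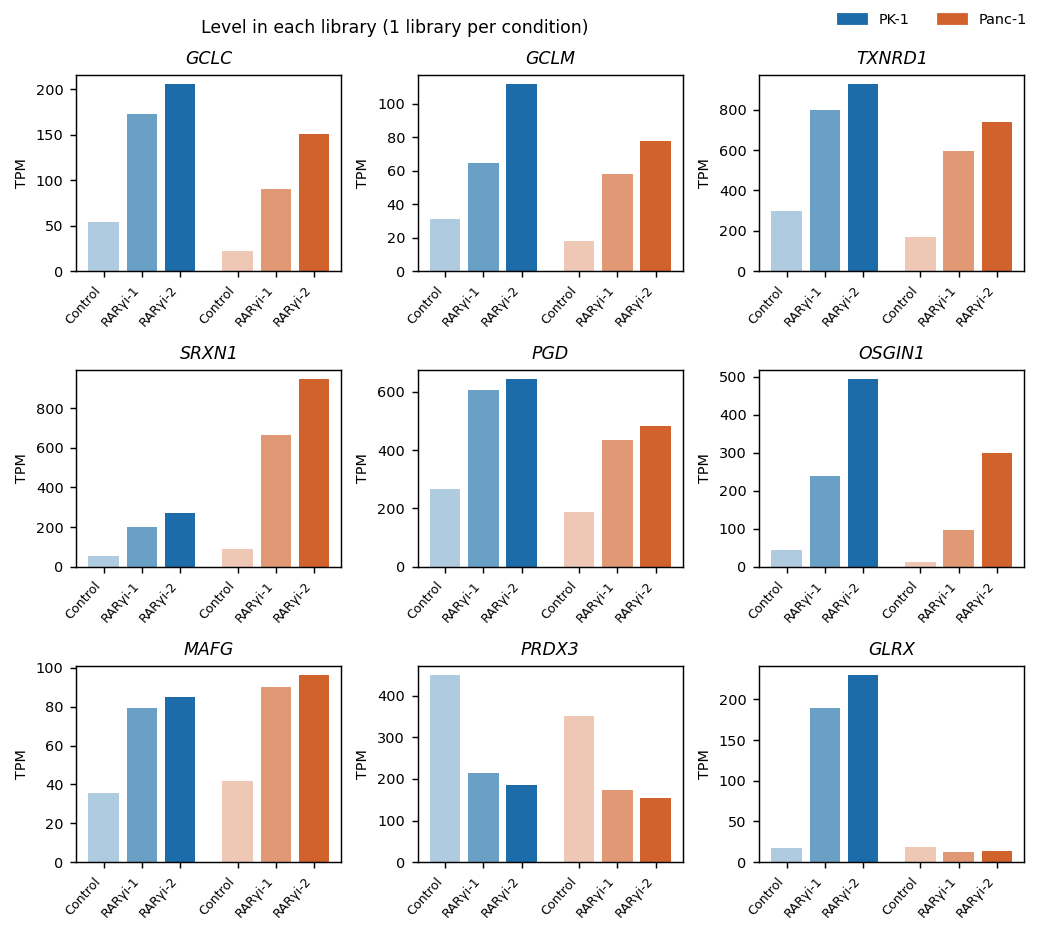
TPM (y axis, from 0 in every panel) of 9 members in the 6 libraries (x axis), PK-1 in blue and Panc-1 in orange, with the control palest and RARγi-2 darkest; each bar is 1 library and there are no error bars. GCLC, GCLM, TXNRD1, SRXN1, PGD, OSGIN1 and MAFG stand above their control in every treated library, PRDX3 stands below it, and GLRX is high only in treated PK-1 (189 and 230 TPM).

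None of the 5 glutathione peroxidases among the members was more than 2-fold higher in any comparison. GPX4, which removes lipid peroxides and was the most abundant of them over the 6 libraries, read 190, 217 and 176 TPM in PK-1 and 510, 346 and 312 TPM in Panc-1. The treated Panc-1 libraries were below their control (-0.56 and -0.71), and the treated PK-1 libraries lay on both sides of theirs (0.19 and -0.11). GPX2, the gastrointestinal enzyme, marked PK-1, with 284, 366 and 479 TPM (0.36 and 0.75), and was listed at the floor in Panc-1. GPX8, an endoplasmic reticulum member, read 38.7, 51.5 and 28.8 TPM in PK-1 and 33.2, 15.3 and 12.7 TPM in Panc-1, where it was more than 2-fold lower (-1.07 and -1.32). GPX3, the secreted form, stayed between 5.93 and 15.3 TPM. GPX1 was listed at the floor in all 6 libraries, and no level is drawn from that entry, which also has 2 named pseudogenes. Outside the members, the peroxidase gene GPX7 read 27.2, 64.0 and 69.2 TPM in Panc-1, more than 2-fold higher (1.21 and 1.32). In PK-1 GPX7 was at the floor.

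Most of the 9 glutathione transferases were within 2-fold. In PK-1, 6 of 9 were above the control with RARγi-1 and 5 with RARγi-2, where 59.5% and 50.6% of all entries were, and in Panc-1, 7 of 9 were below it with each inhibitor, where 42.9% and 50.7% of all entries were. Only GSTM3, MGST2 and MGST3 had both values above the control in PK-1 and both below it in Panc-1. GSTP1, by far the most abundant, read 1501, 1490 and 1979 TPM in PK-1 and 1264, 1116 and 1176 TPM in Panc-1. No fold change of it was larger in size than 0.40, so the dominant transferase was within the yardstick of each line. MGST1, a membrane-bound transferase and peroxidase, was the exception in Panc-1, at 240, 441 and 401 TPM in PK-1 and 5.25, 18.5 and 20.4 TPM in Panc-1. Its 4 log2 fold changes were 0.88, 0.74, 1.64 and 1.78, and its level in treated Panc-1 stayed far below that of PK-1 Control.

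GSTO1, the omega-class enzyme, read 251, 244 and 151 TPM in PK-1 and 258, 155 and 97.2 TPM in Panc-1, with log2 fold changes of -0.04, -0.73, -0.73 and -1.40. The RARγi-2 library was the lowest in each line. GSTM3 read 12.1, 23.7 and 18.5 TPM in PK-1 (0.92 and 0.57) and 27.7, 17.1 and 14.6 TPM in Panc-1 (-0.67 and -0.87), so treated libraries lay above the PK-1 control and below the Panc-1 control. MGST2 and MGST3, relatives of MGST1, showed the same signs, with 0.58 and 0.48 against -0.10 and -0.72 for MGST2 and 0.43 and 0.36 against -0.22 and -0.40 for MGST3. GSTM2 was at or near the floor in PK-1 and read 4.69, 1.66 and 1.21 TPM in Panc-1 (-1.10 and -1.37), and GSTM4 ran from 12.9 to 25.4 TPM with fold changes between -0.93 and 0.68. GSTM1 was listed at the floor. GSTM1, GSTM2 and GSTM4 are near-identical neighbours whose reads may have been split, so their levels are uncertain.

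Glutaredoxins use glutathione to free proteins from mixed disulfides, and the cytosolic GLRX had the widest gap in fold change between the cell lines of all members. GLRX read 16.8, 189 and 230 TPM in PK-1 Control, RARγi-1 and RARγi-2 and 18.5, 12.4 and 13.4 TPM in Panc-1. The controls of the lines were alike, treated PK-1 stood more than 10-fold above its control and treated Panc-1 stood slightly below, with log2 fold changes of 3.42 and 3.70 against -0.54 and -0.44. GLRX2, the mitochondrial and nuclear form, went the other way, at 37.0, 35.4 and 32.7 TPM in PK-1 (-0.06 and -0.18) and 44.0, 70.1 and 77.0 TPM in Panc-1 (0.66 and 0.79). The 3 named pseudogenes of GLRX could take or give reads.

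In the thioredoxin system, the reductase TXNRD1 and sulfiredoxin SRXN1 were upregulated more than 2-fold in both lines, PRDX3 was more than 2-fold lower in both, and TXN2 and TXNRD2 were lower within 2-fold. TXNRD1, the cytosolic reductase, read 298, 800 and 928 TPM in PK-1 and 168, 594 and 737 TPM in Panc-1. Every treated library exceeded both controls, with log2 fold changes of 1.42, 1.64, 1.82 and 2.12. SRXN1, which repairs over-oxidized peroxiredoxins, read 54.3, 198 and 270 TPM in PK-1 and 90.8, 665 and 946 TPM in Panc-1. Its log2 fold changes were 1.85, 2.29, 2.86 and 3.37, so the larger ones were those of Panc-1. SRXN1 overlaps the exons of AL121758.1, a protein-coding entry on the same strand, and how reads were divided is not given in the sources used here. TXN, the cytosolic thioredoxin, was abundant and within 2-fold, at 1402, 1767 and 1753 TPM in PK-1 (0.33 and 0.32) and 511, 771 and 866 TPM in Panc-1 (0.59 and 0.76).

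TXN2, TXNRD2 and PRDX3, which work in mitochondria, were set against the cytosolic members after their values had been seen. TXN2, the mitochondrial thioredoxin, read 186, 120 and 121 TPM in PK-1 and 121, 85.4 and 85.5 TPM in Panc-1, with log2 fold changes of -0.63, -0.62, -0.50 and -0.50. TXNRD2, its reductase, read 27.9, 16.2 and 19.5 TPM in PK-1 and 26.8, 14.8 and 17.2 TPM in Panc-1 (-0.75, -0.50, -0.82 and -0.61). PRDX3, the mitochondrial peroxiredoxin that they serve, read 450, 215 and 185 TPM in PK-1 and 351, 174 and 153 TPM in Panc-1. All 3 genes were below the control in every treated library, and PRDX3 was past 2-fold in each (-1.07, -1.28, -1.01 and -1.19). The ratio of TXNRD1 to TXNRD2 in TPM was 10.7 in PK-1 Control and 49.4 and 47.6 in the treated libraries, and 6.28, 40.3 and 42.8 in Panc-1. The ratio of TXN to TXN2 was 7.52, 14.7 and 14.5 for the PK-1 libraries and 4.21, 9.04 and 10.1 for those of Panc-1. The 4 named pseudogenes of PRDX3 could take or give reads, as could the 7 of TXN and the 4 of PRDX2.

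The remaining peroxiredoxins did not move together. PRDX2, a cytosolic form, read 249, 123 and 115 TPM in PK-1 and 78.9, 40.4 and 32.1 TPM in Panc-1. It was lower in every treated library and past 2-fold in 3 of 4 comparisons (-1.02, -1.11, -0.95 and -1.27). PRDX5, which is found in mitochondria, peroxisomes and cytosol and was the most abundant member of the system on average, read 809, 1206 and 1592 TPM in PK-1 and 919, 2114 and 2305 TPM in Panc-1. It was higher in every treated library (0.57, 0.97, 1.20 and 1.33), so the ratio of PRDX5 to PRDX3 went from 1.80 to 5.62 and 8.62 in PK-1 and from 2.62 to 12.1 and 15.1 in Panc-1. A lower level was therefore not shared by all peroxiredoxins of the mitochondria. PRDX1, PRDX4 and PRDX6, of the cytosol and the endoplasmic reticulum, lay between -0.26 and 0.45 in all 4 comparisons.

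**Figure D4:**
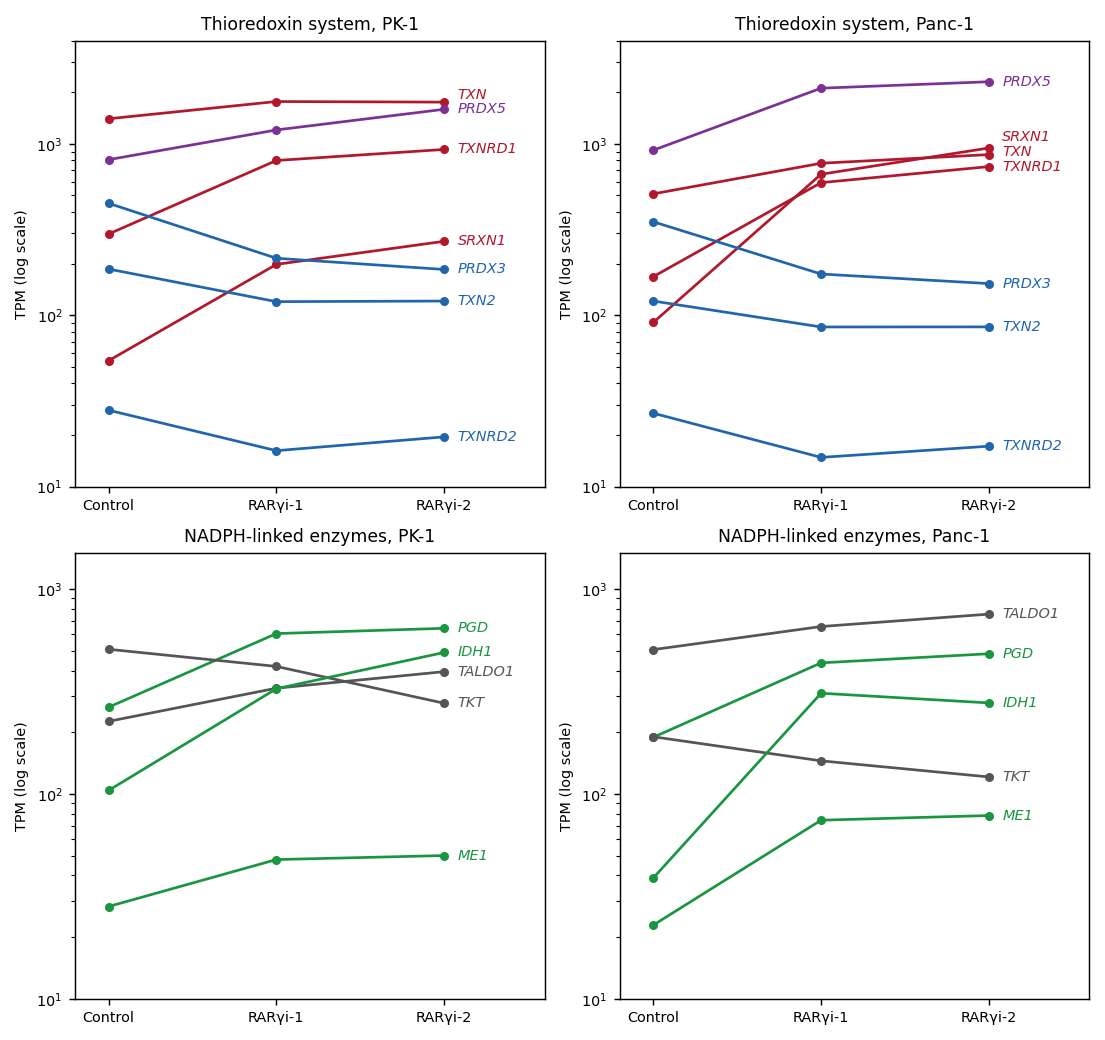
TPM on a log scale (y axis) in the control, RARγi-1 and RARγi-2 libraries (x axis) of PK-1 (left) and Panc-1 (right); each point is 1 library and lines only join the points of a gene. In the upper panels cytosolic members are red, mitochondrial members blue and PRDX5, found in both places, purple; TXNRD2, TXN2 and PRDX3 lie below their control in every treated library. In the lower panels enzymes that make NADPH are green and the non-oxidative TALDO1 and TKT grey; PGD stands at 265 TPM in PK-1 Control and at 189 TPM in Panc-1 Control, and at 436 TPM or more in every treated library.

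Superoxide dismutases turn superoxide into hydrogen peroxide and catalase breaks the peroxide down, and none of the 3 was more than 2-fold higher. SOD1, the cytosolic form and the most abundant, read 361, 390 and 423 TPM in PK-1 and 521, 448 and 473 TPM in Panc-1, all within 0.23 of the control on the log2 scale. SOD2, the mitochondrial form, was lower in the 4 treated libraries (-0.33, -0.46, -0.24 and -0.74). CAT, the peroxisomal catalase, read 65.8, 66.0 and 32.7 TPM in PK-1 and 73.0, 35.5 and 40.9 TPM in Panc-1. Only the PK-1 RARγi-1 library stayed at the level of the controls (0.00), and the other 3 were lower (-0.99, -1.02 and -0.82).

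In the pentose phosphate branch, PGD, the oxidative enzyme that makes NADPH from 6-phosphogluconate, was upregulated, while the non-oxidative enzymes diverged. PGD read 265, 606 and 643 TPM in PK-1 and 189, 436 and 483 TPM in Panc-1. Its 4 log2 fold changes were nearly equal, at 1.19, 1.28, 1.20 and 1.35. TALDO1, transaldolase and the most abundant of the 3 on average, read 226, 328 and 395 TPM in PK-1 and 506, 656 and 754 TPM in Panc-1, and was higher within 2-fold (0.54, 0.80, 0.37 and 0.57). TKT, transketolase, was lower, at 508, 419 and 277 TPM in PK-1 and 190, 145 and 121 TPM in Panc-1 (-0.28, -0.88, -0.39 and -0.64). The ratio of PGD to TKT went from 0.521 to 1.45 and 2.32 in PK-1 and from 0.995 to 3.01 and 3.97 in Panc-1.

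ME1, the cytosolic malic enzyme and another source of NADPH, read 28.2, 47.8 and 50.0 TPM in PK-1 and 22.9, 74.4 and 78.4 TPM in Panc-1. It was higher in every treated library and past 2-fold only in Panc-1 (0.74, 0.80, 1.66 and 1.73). NQO1, a quinone reductase and classic NRF2 target, read 564, 762 and 810 TPM in PK-1 and 193, 473 and 549 TPM in Panc-1. It showed the same order (0.44, 0.52, 1.29 and 1.5), and its treated Panc-1 libraries stayed below the PK-1 control.

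The multidrug resistance proteins, which export glutathione conjugates, were mixed. ABCC3 read 34.5, 155 and 136 TPM in PK-1 and 28.7, 44.9 and 36.2 TPM in Panc-1, past 2-fold only in PK-1 (2.14, 1.95, 0.63 and 0.32). ABCC1 read 55.8, 84.6 and 66.4 TPM in PK-1 (0.59 and 0.25) and 115, 61.0 and 50.0 TPM in Panc-1 (-0.90 and -1.18), so treated libraries lay above one control and below the other. ABCC2 was at most 2.98 TPM. OSGIN1, an oxidative stress-induced growth inhibitor, had the largest fold change of the 49 members in Panc-1 with RARγi-2. It read 44.3, 238 and 493 TPM in PK-1 and 12.3, 96.2 and 300 TPM in Panc-1. In each line the RARγi-2 library was above the RARγi-1 library, with log2 fold changes of 2.40, 3.45, 2.86 and 4.49, and its exons overlap those of AC009119.2 on the same strand.

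Compared by branch, members of both the glutathione and the thioredoxin genes lay on either side of the control. The branch medians are given beside those of all entries. The yardstick is a spread of single genes and does not give that of a median, so a shift of a branch was not tested. The median log2 fold change of the 21 glutathione genes was 0.36, 0.00, 0.00 and -0.10, and that of the 11 thioredoxin genes was -0.03, -0.13, -0.21 and 0.15. Over all entries above the floor it was 0.13, 0.01, 0.08 and -0.01. The glutathione medians of 0.00 are values of genes at the floor, which were kept in the branch. Of the 21 glutathione genes, 16 were above and 3 below the control with RARγi-1 in PK-1, and 10 and 8 with RARγi-2. In Panc-1 the numbers were 8 and 10 with RARγi-1 and 7 and 11 with RARγi-2. The 3 pentose phosphate genes had higher medians, 0.54, 0.80, 0.37 and 0.57, each being the value of TALDO1. Past 2-fold in all 4 comparisons stood 2 of 21 glutathione genes on the higher side and none on the lower side, 2 of 11 thioredoxin genes against 1, and 1 of 3 pentose phosphate genes against none, where the share over all entries was 2.63% on the higher side and 2.13% on the lower side. Branches of so few genes give no share that could be set against these.

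Summed levels set the glutathione genes apart from the other branches in Panc-1 but not in PK-1. The thioredoxin genes summed to 5089, 6039 and 6512 TPM in PK-1 and 4223, 6229 and 7290 TPM in Panc-1, or 1.19, 1.28, 1.47 and 1.73 times the control. The pentose phosphate genes summed to 999, 1353 and 1314 TPM in PK-1 and 885, 1237 and 1358 TPM in Panc-1, or 1.35, 1.32, 1.40 and 1.53 times the control. The glutathione genes summed to 2991, 3703 and 4164 TPM in PK-1 and 2410, 2130 and 2142 TPM in Panc-1, or 1.24, 1.39, 0.884 and 0.889 times the control. Treated libraries were thus above the control in all branches and lines except for the glutathione genes of Panc-1, where GPX4, GSTP1 and GSTO1 were lower. These sums weigh abundant genes most. All 49 members took 1.06%, 1.35% and 1.47% of the TPM in PK-1, and the shares for Panc-1 were 0.891%, 1.14% and 1.29%.

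Of 85 further genes of the same pathways, 84 were listed, and GSTT1 was not analysed here. These genes too were chosen with earlier results of these data known, so their shares are not independent of that choice. Among the 84, 12, 17, 14 and 13 were more than 2-fold higher and 5, 11, 3 and 9 more than 2-fold lower in the 4 comparisons. These are 14.3%, 20.2%, 16.7% and 15.5% on the higher side, above the background of 9.05%, 11.9%, 7.30% and 8.34%. On the lower side they are 5.95%, 13.1%, 3.57% and 10.7%, near the background of 4.85%, 12.3%, 5.96% and 11.0%. Of the 84 genes, 16 were at the floor in every PK-1 library and 16 in every Panc-1 library. They are kept in these shares but are left out of the background, so the shares on both sides are understated beside it. In all 4 comparisons 9 were higher (10.7%, against 2.63% of all entries: IDH1, MTHFD2, SLC7A11, CTH, CHAC1, OPLAH, SESN2, MAFF and SQSTM1) and 2 lower (2.38%, against 2.13%: MTHFD1 and PTGES, a prostaglandin synthase that uses glutathione). Around the glutathione genes, SLC7A11, the cystine importer, read 21.9, 130 and 156 TPM in PK-1 and 5.15, 38.1 and 58.7 TPM in Panc-1 (2.52, 2.78, 2.67 and 3.28). CTH, which makes cysteine from cystathionine, had log2 fold changes of 2.78, 3.25, 3.07 and 2.95. CHAC1, which degrades glutathione in the cytosol, was higher as well (3.65, 3.76, 2.61 and 2.79), as was OPLAH, which returns its breakdown product to glutamate (2.52, 2.11, 1.12 and 1.04). These named genes of supply and of breakdown were on the higher side, but the breakdown genes as a group were not. Of 10 breakdown genes, 4 were above the control in all 4 comparisons and 3 below it. Their medians were 0.02, 0.00, 0.00 and 0.00, and those of 0.00 are values of genes at the floor. Those below included GGCT (-1.10, -1.98, -0.36 and -0.82) and CHAC2 (-0.68, -1.08, -0.68 and -1.01). Of 6 supply genes, 4 were above the control in all 4 comparisons.

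Among other NADPH enzymes, IDH1, the cytosolic isocitrate dehydrogenase, read 104, 326 and 490 TPM in PK-1 and 38.9, 310 and 278 TPM in Panc-1 (1.64, 2.22, 2.96 and 2.81). RPIA, a non-oxidative enzyme like TKT, was lower (-1.10, -2.08, -0.50 and -1.01). Of the folate enzymes, the mitochondrial MTHFD2 was higher (1.28, 1.46, 1.18 and 1.48) and the cytosolic MTHFD1 lower (-2.08, -2.89, -1.14 and -1.46). How much NADPH either makes is not shown by its transcript. IDH2 (-0.30, -0.42, -0.55 and -0.90) and NNT (-0.84, -1.35, -0.82 and -1.15) were lower too. Of the 11 genes listed as other NADPH sources, 4 were above the control in all 4 comparisons and 3 below it. SESN2, a stress-induced sestrin, was higher (2.42, 3.14, 3.61 and 3.63). Beside MAFG, the small MAF gene MAFF was higher (2.11, 2.55, 1.15 and 1.21), and so was SQSTM1, whose protein p62 binds KEAP1 (2.20, 3.24, 2.37 and 2.91). MAFK, the remaining small MAF gene, was past 2-fold in PK-1 only (1.49, 1.85, -0.37 and 0.58), and NFE2L3, a relative of NFE2L2, was lower in every treated library (-0.45, -1.63, -1.56 and -1.98).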

How the data were processed

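RNA from 6 cultures was sequenced with a strand-specific mRNA kit. The authors deposited log2 values of TPM per entry, with values under 1 TPM raised to 1 TPM, a floor read from the values themselves. The build hg38 stands in the submitters' processing notes; the aligner, counting method, strand use and annotation are not given in the sources used here. Of the 49 members, 19 overlap exons of another gene in GENCODE 29 and 13 have named pseudogenes.

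The log2 values were turned into TPM, and fold changes were taken on the log2 scale with a pseudocount of 1 TPM and counted past 2-fold (Python 3.11.15, pandas 2.3.3, numpy 2.4.6). The script was tested on simulated data. No test was run, because there is 1 library per condition. The background is the share of all entries past 2-fold.

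Values in all libraries were to be given for members past 2-fold in all 4 comparisons, for those past 2-fold in one line and on the other side of 0 in the other, and for the most abundant of each group; those of other members were added after they were seen. The members and lists were chosen with earlier results of these data known. Alternatives were other pseudocounts, fold thresholds and scalings, a minimum of 5 TPM and summed symbols. The background at 10 TPM and at other fold thresholds was added after seeing the data. Some items are not reported here.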

Additional observations from a re-analysis of the deposited data

Results flagged for a closer look

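The rule for a closer look asked that both inhibitors move a member past 1.5-fold, in opposite directions in the 2 lines. No member met that rule. By sign alone, for 8 members both inhibitors moved the transcript one way in PK-1 and the other way in Panc-1. These are 17.4% of the 46 members above the floor in both lines, against 13.4% of the 12799 entries that were, so their number is near the background, and several rest on a value close to 0, the smallest in size being 0.03 for PRDX6, 0.06 for GLRX2, 0.10 for MGST2 and 0.11 for SOD1. The difference between the lines was not tested, the comparisons within a line share a control library, and none of the 8 was past 1.5-fold in all 4 comparisons. The value given is the mean log2 fold change in PK-1 minus that in Panc-1. GLRX, the cytosolic glutaredoxin, had the widest gap in fold change, 4.05, from means of 3.56 for PK-1 and -0.49 for Panc-1. Among the transferases the gap was 1.52 for GSTM3 (0.74 against -0.77), 0.94 for MGST2 (0.53 against -0.41) and 0.71 for MGST3 (0.40 against -0.31). For the exporter ABCC1 it was 1.46 (0.42 against -1.04). GLRX2 (-0.85, from -0.12 and 0.73) and PRDX6 (-0.38, from -0.13 and 0.25) were higher in treated Panc-1 instead. SOD1 had the smallest gap, 0.35 (0.17 against -0.18), and after rescaling by median ratios its RARγi-1 value in PK-1 changed sign, whereas the other 7 kept their signs.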

How the results depend on the processing

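No paired analysis was possible because there was 1 library per condition and the labels carry no replicate numbers; a fit with the cell lines as replicates of each other was not run. At a fold threshold of 1.5, the members on the lower side numbered 4 and 6 for PK-1 and 9 and 14 for Panc-1 (8.16%, 12.2%, 18.4% and 28.6%, against 11.8%, 22.6%, 13.6% and 21.2% of entries above the floor), those on the higher side with RARγi-2 in PK-1 numbered 17 (34.7%, against 23.0%), and in all 4 comparisons 11 were higher (22.4%, against 8.08%; NFE2L1, GGT1, MGST1 and ME1 joined the 7) and 2 lower (4.08%, against 5.66%; PRDX2 joined). At a threshold of 3, the higher side held 5 and 7 for PK-1, 7 and 7 for Panc-1 and 3 in all 4 comparisons (GCLC, SRXN1 and OSGIN1), where 2.63%, 4.71%, 2.02%, 2.80% and 0.734% of entries were, and the lower side 0 throughout, where 1.46%, 5.34%, 2.10%, 4.70% and 0.688% were. A pseudocount of 5 left 1 lower member for PK-1 RARγi-1, 0 for Panc-1 RARγi-1 and 0 in all 4 comparisons, and it took GCLM from the higher side. A pseudocount of 0.1 or none added GGT1 there. Rescaling by median ratios left 5 members higher in all 4 comparisons (without MAFG and GCLM) and made 2 lower; it changed the sign of GSS, GSR, SOD1 and CAT for PK-1 RARγi-1 and of GSTM4 for PK-1 RARγi-2, all within 0.11 of 0 on the log2 scale. These settings differ from the reported one by construction. No branch median moved by more than the yardstick of its line, which is a spread of single genes and so a loose bound for a median. No fold change past 2-fold changed sign, and summing repeated symbols changed nothing, since no member's symbol is repeated. Depth could not be weighed from TPM.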
